A study of Mus musculus with 12 samples.

Results

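The complement system genes of TRAMP-C2 tumors are the 33 genes whose rows were found in the count tables by gene symbol, out of 49315 genes in all. They fall into 9 genes of C1 and the classical pathway, 3 of the lectin pathway, 5 for C3 and the alternative pathway, 7 of the terminal pathway and its fluid-phase inhibitors, 5 receptors and 4 membrane regulators. The members were listed by name, with earlier results of these data known, and all 33 had counts.

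TRAMP-C2 cells, a line from a mouse prostate cancer, were grown as subcutaneous tumors in male C57BL/6J mice aged 6 to 8 weeks. Tumors of about 200 mm3 were injected directly with 1 of 4 treatments and collected on day 6, with 3 tumors in each group. The combination group received 3 doses of 50 µg ADU-S100 and 2 doses of 10 µg cyto-IL-15, the ADU-S100 group 3 doses of 50 µg, the cyto-IL-15 group 2 doses of 10 µg, and the HBSS (buffer) group 3 doses of 50 µl. ADU-S100 is an agonist of STING, which signals the presence of cytosolic DNA and induces type I interferon. In cyto-IL-15, interleukin-15 was modified to anchor in cell membranes. All tumors carry the same cell line, and bulk RNA of tumor tissue was sequenced, so that fewer cells of a type and less RNA per cell cannot be told apart in any result.

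Complement is a cascade of plasma and cell-surface proteins that tags, inflames and lyses targets. C1q, with the proteases C1r and C1s, starts the classical pathway, ficolins and the MASP proteases start the lectin pathway, and both cut C4 and C2 to build an enzyme that cleaves C3. The alternative pathway amplifies that cleavage with factors B and D and is stabilized by properdin. The C3 and C5 fragments act on receptors of myeloid cells, the terminal components assemble a membrane pore, and host cells carry regulators that stop the cascade on their own surface. The liver makes most plasma complement, whereas C1q and properdin come largely from myeloid cells.

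Total counts ranged from 48772204 to 103700199 per tumor. Levels are given in CPM, the usual depth-scaled count, after TMM scaling, a correction for differences in RNA composition between libraries. The 33 genes together took 0.224% to 0.509% of all counts in the combination group, 0.284% to 0.357% in the ADU-S100 group, 0.116% to 0.307% in the cyto-IL-15 group and 0.187% to 0.270% in the HBSS group. The defining liver genes Alb, Apoa1, Ttr, Serpina1a and Fgb summed to at most 0.115 CPM in any tumor, so liver RNA was near absent. Epithelial keratins did not mark all tumors alike. Krt19 had 497 CPM in cyto-IL-15 tumor 13 and 27.1 CPM in HBSS tumor 22LL, whereas it had 0 counts in HBSS tumor 19, which allows up to 0.0491 CPM.

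A pair of tumors stood apart in these genes. Of the 31 members with more than trace counts, 17 had their highest level of all 12 tumors in combination tumor 28LL, and 14 had their lowest level in cyto-IL-15 tumor 13. The shares of all genes with their extremes in these tumors were not computed, so the counts show nothing particular to complement genes. Tumor 28LL also had the highest summed levels of 5 skeletal muscle genes (3129 CPM, against 35.4 and 590 CPM in the other combination tumors, 119 to 1235 CPM with ADU-S100, 3.06 to 520 CPM with cyto-IL-15 and 2.77 to 3.83 CPM in the HBSS group) and of 5 inflammatory monocyte genes (1700 CPM, against 108 to 208 CPM in the HBSS group). Tumor 13 had the lowest summed level of 5 pan-macrophage genes, 399.5 CPM. The part of muscle or myeloid cells in the levels of these tumors was not tested, and log2 fold changes given below that moved by over 1.5 times without either tumor are given both ways.

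**Figure D1:**
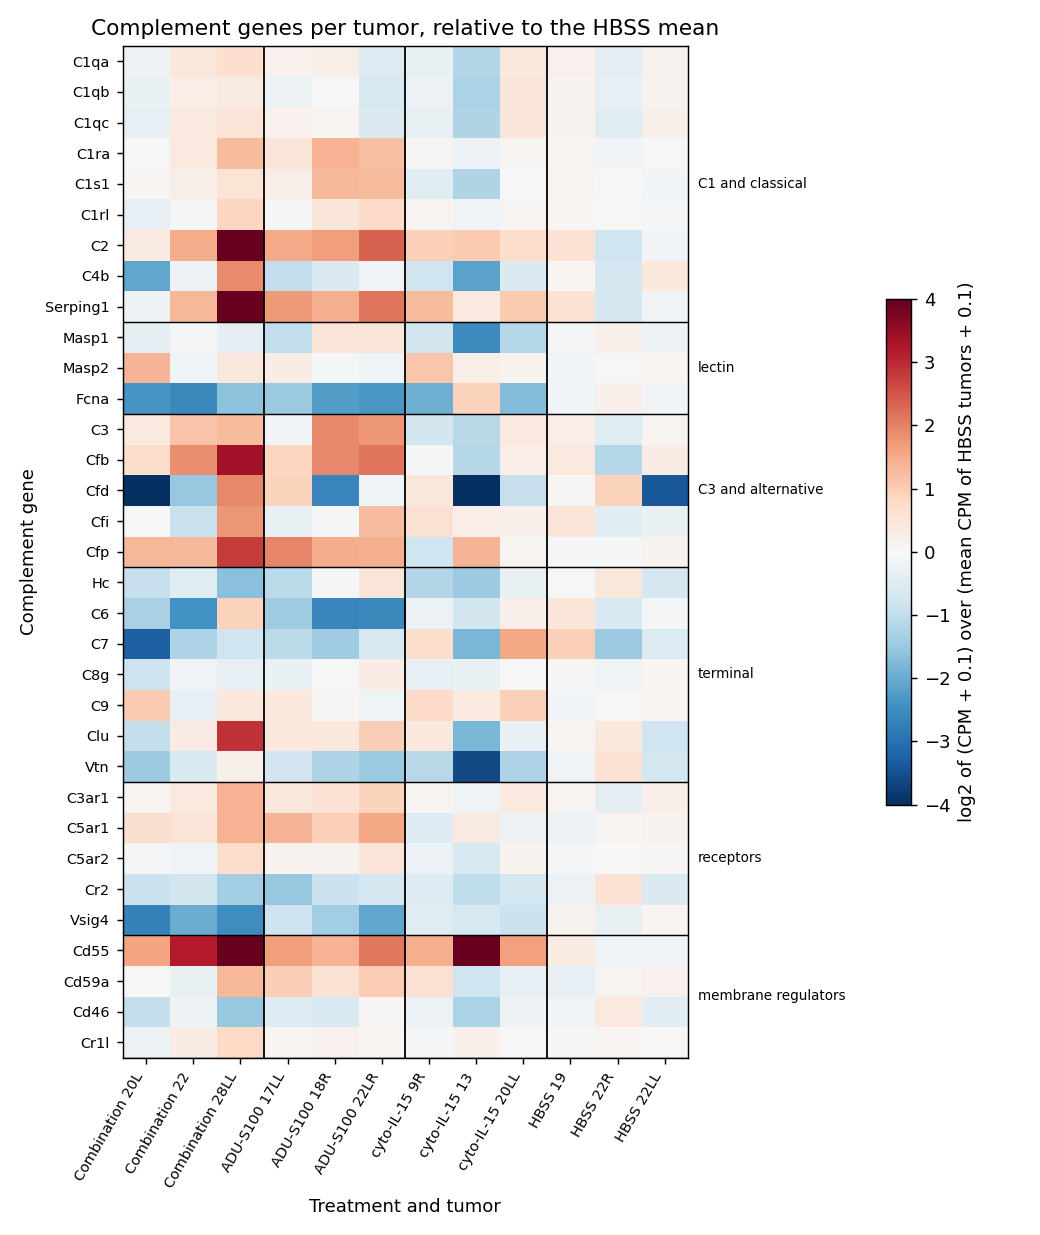
Heat map of all 33 complement genes (rows, by class) in the 12 tumors (columns, by treatment); color is the log2 ratio of CPM + 0.1 to the HBSS mean + 0.1, with the scale ending at 4 in either direction. Cd55 is above and Vsig4 below the HBSS tumors in all 9 treated tumors, and tumor 28LL has the highest level of 17 genes.

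Per kilobase of exon, C1q dominated. In the HBSS group C1qa averaged 615 CPM per kb, C1qb 457 and C1qc 240, followed by C3 with 45.9, C1s1 with 30.3, the C3a receptor C3ar1 with 25.3 and C4b with 18.9. At the other end were C9 with 0.00998 and Masp2 with 0.00772 CPM per kb. The 3 C1q genes held 45.2% to 61.9% of the summed CPM of all 33 members in the combination group, 35.8% to 62.0% in the ADU-S100 group, 54.5% to 71.1% in the cyto-IL-15 group and 63.6% to 67.5% in the HBSS group.

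ADU-S100-treated tumors differed from HBSS-treated tumors in 8 complement genes, 6 higher and 2 lower. Properdin (Cfp), the C5a receptor C5ar1, the decay-accelerating factor Cd55, C1ra, C2 and the C1 inhibitor Serping1 were higher, and ficolin A (Fcna) and C6 were lower. A gene was called at an adjusted p under 0.05 with an absolute log2 fold change above 1, by edgeR's quasi-likelihood test with Benjamini-Hochberg adjustment over all 18911 genes tested. Of the 33 members 31 passed the filter on low counts, all but Masp2 and C9. The called shares, 19.4% higher and 6.45% lower, stand beside 2.75% called higher and 0.777% called lower among all genes. Every ADU-S100 tumor lay above every HBSS tumor for 11 members (35.5%, against 15.8% of all genes) and below for 5 (16.1%, against 15.4% of all genes). The median log2 fold change was 0.15 over the 31 members and 0.03 over all genes.

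Cfp, which stabilizes the alternative pathway convertase and is stored in myeloid cells, had 120, 86.9 and 83.9 CPM in ADU-S100 tumors 17LL, 18R and 22LR, against 29.4, 29.9 and 34.0 CPM in HBSS tumors 19, 22R and 22LL. The groups were far apart and tight within themselves. The log2 fold change was 1.66 ± 0.17 (SE, edgeR adjusted p = 0.0017, n = 3 each), the smallest p of the members. C5ar1, through which the anaphylatoxin C5a draws and arms neutrophils and macrophages, had 74.0, 55.2 and 84.8 CPM in ADU-S100 tumors, against 24.5, 30.3 and 31.4 CPM in HBSS tumors. Its log2 fold change was 1.33 ± 0.18 (SE, edgeR adjusted p = 0.00517), and again no treated tumor overlapped the controls. Cd55, which takes apart C3 convertases on host cells, had 6.11, 5.07 and 8.35 CPM in ADU-S100 tumors, against 2.31, 1.65 and 1.65 CPM in HBSS tumors, a log2 fold change of 1.82 ± 0.26 (SE, edgeR adjusted p = 0.00752).

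Fcna, a lectin pathway recognition molecule that mouse macrophages and liver make, moved the other way. It had 1.15, 0.641 and 0.593 CPM in ADU-S100 tumors, against 3.11, 3.92 and 3.11 CPM in HBSS tumors, and the log2 fold change was -2.06 ± 0.33 (SE, edgeR adjusted p = 0.0108). These 4 genes, Cfp, C5ar1, Cd55 and Fcna, were called in each of the 6 fits that left out 1 tumor, where 1.63% to 3.17% of all genes were called. A joint fit of all 12 tumors called none of them, nor any other gene.

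The other 4 calls were lost when single tumors were left out. C1ra, the C1r protease, had 62.3, 113 and 99.9 CPM in ADU-S100 tumors, against 46.8, 40.1 and 43.5 CPM in HBSS tumors (log2 fold change 1.09 ± 0.19 SE, edgeR adjusted p = 0.0172). C2, whose cleaved form is the catalytic part of the classical C3 convertase, had 8.22, 9.26 and 14.7 CPM in ADU-S100 tumors, against 4.29, 1.56 and 2.58 CPM in HBSS tumors (1.95 ± 0.38, edgeR adjusted p = 0.0279). Serping1, the inhibitor of C1r, C1s and the MASP proteases, had 61.0, 50.9 and 82.9 CPM in ADU-S100 tumors, against 27.8, 11.6 and 16.8 CPM in HBSS tumors (1.81 ± 0.34, edgeR adjusted p = 0.0319). None of these 3 genes overlapped between the groups. C6, a component of the membrane pore, had 0.246, 0.0486 and 0.056 CPM in ADU-S100 tumors, against 1.21, 0.517 and 0.781 CPM in HBSS tumors (-2.85 ± 0.65, edgeR adjusted p = 0.0411). Its levels rest on 18, 5 and 5 counts in the ADU-S100 tumors and 74, 38 and 71 counts in the HBSS tumors. Of the 6 fits that left out 1 tumor, C2 was called in 2 and C1ra, Serping1 and C6 in 1 each; the number of called members was 4 without HBSS tumor 22R, HBSS tumor 22LL or ADU-S100 tumor 22LR, 5 without ADU-S100 tumor 18R, 6 without HBSS tumor 19 and 10 without ADU-S100 tumor 17LL.

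**Figure D2:**
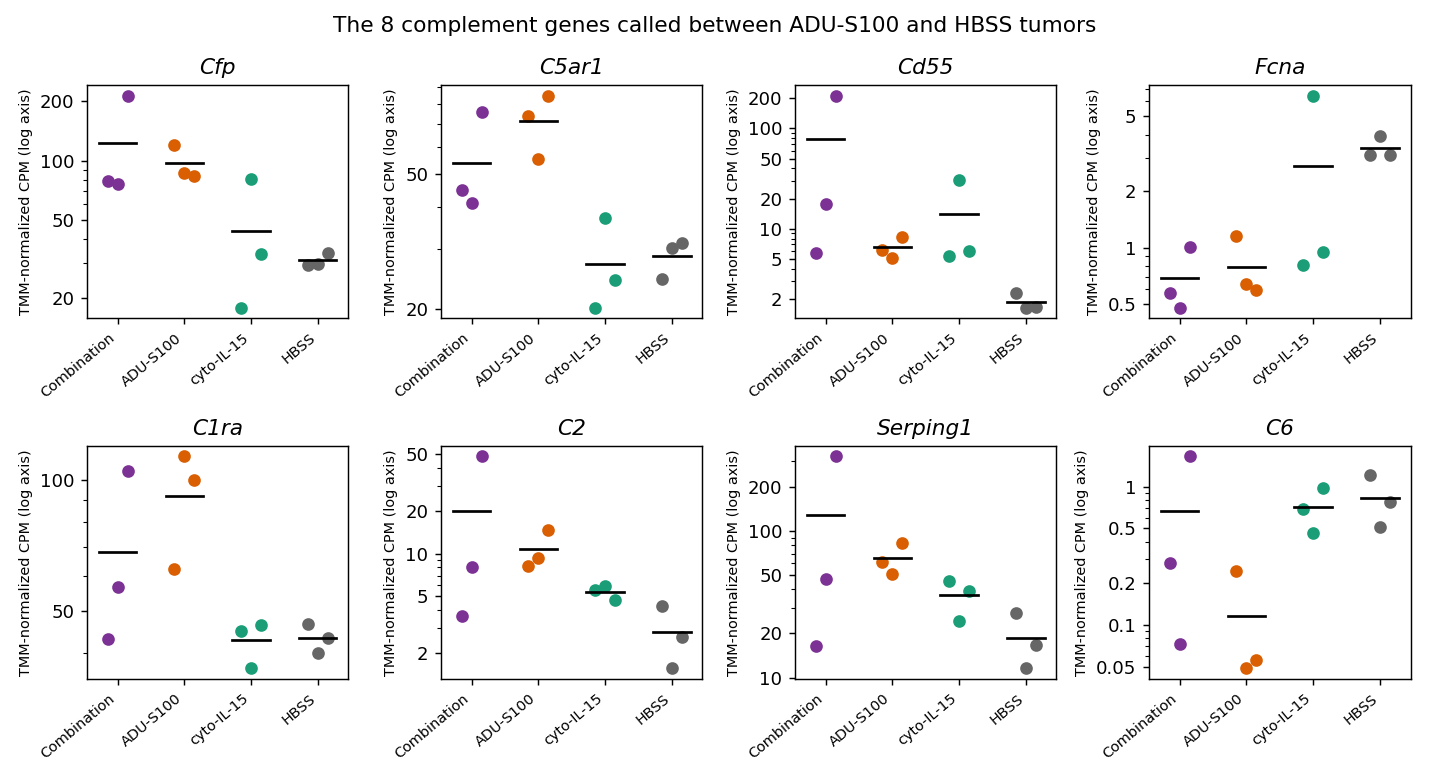
Level in CPM (log axis) of the 8 genes called between ADU-S100 and HBSS tumors, 1 point per tumor and a bar at the group mean, in all 4 groups. Cfp lies between 83.9 and 120 CPM in ADU-S100 tumors and between 29.4 and 34.0 CPM in HBSS tumors, and the levels of combination tumor 28LL exceed those of the other combination tumors in all 8 genes.

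A further 8 members had an unadjusted p under 0.05 and were not called, so that 16 of 31 members were under 0.05, against 23.9% of all genes. Cd59a, which blocks assembly of the pore, had 10.7, 7.99 and 10.8 CPM in ADU-S100 tumors, against 4.26, 5.68 and 6.00 CPM in HBSS tumors, and its edgeR adjusted p was 0.0391 with a log2 fold change of 0.91 ± 0.21, under the fold threshold. C1s1, the C1s protease, had 111, 234 and 227 CPM in ADU-S100 tumors, against 101.4, 95.8 and 87.3 CPM in HBSS tumors (1.02 ± 0.25, edgeR adjusted p = 0.0569). C3ar1 had a log2 fold change of 0.67 ± 0.17 (edgeR adjusted p = 0.0515) and Cfb, factor B, of 1.76 ± 0.50 (edgeR adjusted p = 0.1). C3 itself, the protein on which all pathways meet, had 890 and 789 CPM in ADU-S100 tumors 18R and 22LR and 221 CPM in 17LL, against 283, 169 and 256 CPM in HBSS tumors. Tumor 17LL thus lay inside the HBSS range, and the log2 fold change of 1.43 ± 0.53 had an edgeR adjusted p of 0.182. Without tumor 17LL it was called, with an edgeR adjusted p of 0.0088. On the lower side were Vsig4 (-1.59 ± 0.44, edgeR adjusted p = 0.0706), the pore inhibitor vitronectin Vtn (-1.15 ± 0.36; 0.0969) and the B cell and follicular dendritic cell receptor Cr2 (-1.16 ± 0.44; 0.148).

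The genes of the recognition subunit C1q overlapped between the groups, unlike those of its proteases. C1qa had 728, 748 and 434 CPM in ADU-S100 tumors, against 726, 485 and 707 CPM in HBSS tumors, a log2 fold change of 0.02 ± 0.25 (SE). The log2 fold changes of C1qb and C1qc were -0.24 ± 0.20 and -0.06 ± 0.24. The difference between the C1q and protease fold changes was not tested. C1s1 reached 6.6 to 21.4 CPM per 100 CPM of summed C1q in ADU-S100 tumors, against 4.87 to 7.81 in HBSS tumors. In combination tumors C1s1 had 5.36 to 7.45, inside the HBSS range, and in cyto-IL-15 tumors 4.29 to 5.92. C1ra reached 3.72 to 9.41 CPM per 100 CPM of C1q in ADU-S100 tumors, against 2.42 to 3.27 in HBSS tumors. In combination tumors C1ra had 2.72 to 4.52 and in cyto-IL-15 tumors 2.1 to 5.35, both overlapping the HBSS range. The C1ra level itself was 43.2, 56.8 and 105 CPM in combination tumors, and both proteases overlapped the HBSS group there. C1ra was at 43.9% to 56.3% of the C1s1 level in ADU-S100 tumors, against 41.9% to 49.8% in HBSS tumors. That share varied more in the other groups, from 43.6% to 75.4% in combination tumors and 48.9% to 90.3% in cyto-IL-15 tumors.

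The macrophage markers beside C1q were not flat. The summed level of 6 resident-type macrophage genes (Mrc1, Cd163, Lyve1, Folr2, Selenop and Fcrls) was 486 to 724 CPM in the combination group, 507 to 534 CPM in the ADU-S100 group, 435 to 1718 CPM in the cyto-IL-15 group and 1299 to 1382 CPM in the HBSS group. Of these 6 genes, 3 were called lower and none higher in ADU-S100 tumors. The summed C1q level divided by this sum was 2.74 to 3.22 in the combination group, 2.09 to 3.28 in the ADU-S100 group, 1.29 to 1.59 in the cyto-IL-15 group and 0.945 to 1.32 in the HBSS group. The ratio thus separated the tumors given ADU-S100, alone or combined, from all others. Against 5 pan-macrophage genes (Adgre1, Csf1r, Cd68, Mertk and Fcgr1) no such separation appeared, with ratios of 1.65 to 2.02 in the combination group, 1.31 to 2.65 with ADU-S100 and 1.35 to 1.64 with HBSS. These ratios were chosen after the levels were seen and carry no test.

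**Figure D3:**
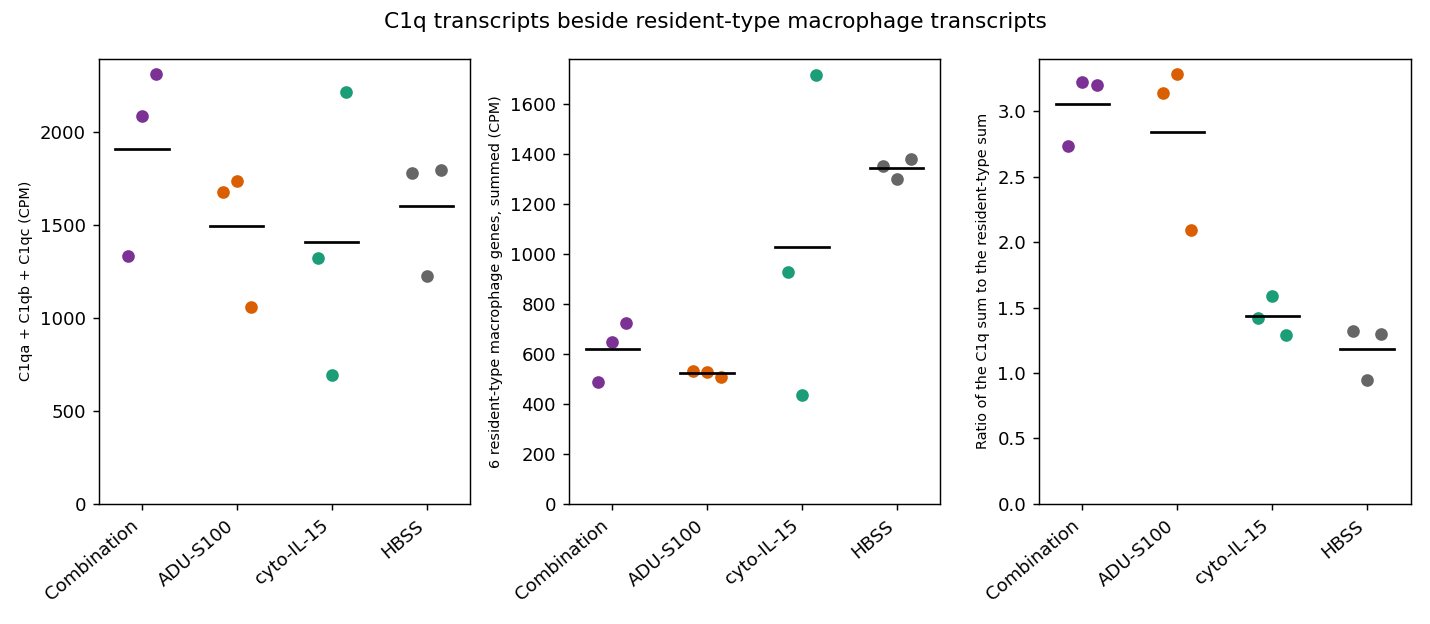
Summed CPM of C1qa, C1qb and C1qc (left), summed CPM of 6 resident-type macrophage genes (middle) and their ratio (right) in each tumor, with bars at group means. The C1q sums overlap between all groups, and the ratio is 2.09 or more in every tumor given ADU-S100 and 1.59 or less in every other tumor.

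Fcna and Vsig4, both expressed by tissue macrophages, were low in the same tumors given ADU-S100 as the resident-type markers. Vsig4 is a receptor for C3b that also restrains the alternative pathway. It had 0.0589, 0.16 and 0.0826 CPM in combination tumors 20L, 22 and 28LL and 0.479, 0.291 and 0.146 CPM in ADU-S100 tumors, against 1.05, 0.748 and 1.00 CPM in HBSS tumors. These levels rest on few counts: 4, 11 and 6 in combination tumors, 35, 30 and 13 in ADU-S100 tumors and 64, 55 and 91 in HBSS tumors. Per 1000 CPM of the resident-type sum, Vsig4 had 0.114 to 0.248 CPM in combination tumors, 0.287 to 0.897 in ADU-S100 tumors and 0.576 to 0.776 in HBSS tumors. Fcna had 0.743 to 1.39 CPM per 1000 in combination tumors and 1.17 to 2.15 in ADU-S100 tumors, against 2.25 to 3.02 in HBSS tumors. Both therefore stood lower beside the resident-type sum in each combination tumor than in any HBSS tumor. In the cyto-IL-15 group neither gene followed that sum. Vsig4 had 0.635, 0.564 and 0.474 CPM (33, 35 and 37 counts) in tumors 9R, 13 and 20LL, below every HBSS tumor. Per 1000 CPM of the sum, Vsig4 had 0.682, 1.30 and 0.276 CPM there. Tumor 13 had the lowest resident-type sum of all 12 tumors, 435 CPM, with the highest Fcna level, 6.45 CPM, and tumor 20LL had the highest sum, 1718 CPM, with 0.949 CPM of Fcna. The part of macrophage number in these levels was not tested.

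Inflammatory monocyte, interferon-stimulated and skeletal muscle markers were higher in tumors given ADU-S100 than in HBSS tumors. The pan-macrophage sum was lower with ADU-S100 alone. The 5 pan-macrophage genes summed to 632 to 885 CPM in ADU-S100 tumors, against 912 to 1102 CPM in HBSS tumors, though 1 of them was called higher. Their sum was 739 to 1405 CPM in the combination group. The summed level of 5 inflammatory monocyte genes was 283 to 1700 CPM in the combination group and 267 to 600 CPM in the ADU-S100 group, against 108 to 208 CPM in the HBSS group, and 4 of the 5 were called higher in ADU-S100 tumors. The summed level of 5 interferon-stimulated genes was 231 to 1529 CPM in the combination group and 534 to 787 CPM in the ADU-S100 group, against 65.5 to 114 CPM in the HBSS group, and all 5 were called higher in ADU-S100 tumors. Of 5 neutrophil genes 3 were called higher, though their sum of 19.8 to 47.3 CPM in ADU-S100 tumors overlapped the 17.1 to 21.5 CPM of HBSS tumors. The 5 skeletal muscle genes summed to 35.4 to 3129 CPM in the combination group and 119 to 1235 CPM with ADU-S100, against 2.77 to 3.83 CPM in the HBSS group, and 3 of the 5 were called higher in ADU-S100 tumors. In cyto-IL-15 tumors 9R and 20LL the monocyte sum was 284 and 276 CPM and the muscle sum 520 and 181 CPM. These too lay above every HBSS tumor, whereas tumor 13 had 87.6 and 3.06 CPM. The interferon-stimulated sum was 50.1 to 64.5 CPM in the cyto-IL-15 group. The part of these cells and signals in the levels of Cfp, C5ar1, C2, Serping1 and C1ra was not tested.

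The windows of 250 bases before the RefSeq transcription start (build GRCm38.p6) of Cfp, Cd55, Vsig4 and Cd59a are shown because Cfp and Cd55 rose in ADU-S100 tumors, Vsig4 was low in all treated tumors, and Cd59a holds the only match to the interferon-stimulated response element among the members searched. They lie at chrX:20931556-20931805 (minus strand), chr1:130462745-130462994 (minus strand), chrX:96293439-96293688 (minus strand) and chr2:104095551-104095800 (plus strand), each directly upstream of the gene as the files place it. Capitals mark that match, and the windows without capitals hold no match to the motifs searched.
Cfp: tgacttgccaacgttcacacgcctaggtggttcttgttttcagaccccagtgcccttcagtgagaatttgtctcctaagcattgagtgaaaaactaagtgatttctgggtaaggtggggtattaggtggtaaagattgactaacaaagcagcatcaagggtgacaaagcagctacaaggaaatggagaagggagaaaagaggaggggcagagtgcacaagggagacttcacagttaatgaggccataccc
Cd55: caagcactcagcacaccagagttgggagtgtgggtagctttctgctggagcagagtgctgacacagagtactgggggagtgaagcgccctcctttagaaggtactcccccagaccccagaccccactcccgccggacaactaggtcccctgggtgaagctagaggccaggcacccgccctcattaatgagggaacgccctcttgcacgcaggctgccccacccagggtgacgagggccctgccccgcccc
Vsig4: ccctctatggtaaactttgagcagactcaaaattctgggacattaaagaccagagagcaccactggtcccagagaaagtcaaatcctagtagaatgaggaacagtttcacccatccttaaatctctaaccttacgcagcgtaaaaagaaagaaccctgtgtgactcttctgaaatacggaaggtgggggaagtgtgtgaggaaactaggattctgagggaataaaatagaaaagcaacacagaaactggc
Cd59a: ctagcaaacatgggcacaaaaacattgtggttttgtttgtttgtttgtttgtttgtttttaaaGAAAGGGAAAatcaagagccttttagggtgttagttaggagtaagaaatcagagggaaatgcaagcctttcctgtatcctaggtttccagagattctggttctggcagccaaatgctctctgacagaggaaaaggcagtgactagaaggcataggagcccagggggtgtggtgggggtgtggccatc

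Such windows were found for 25 of the 33 members and searched on both strands for 3 motifs. The interferon-stimulated response element, searched as GAAA, any 2 bases and GAAA, was found in 1 of the 25 windows, that of Cd59a at bases -187 to -178, and in 3.06% of 27025 windows, 1 per gene. The gamma-activated site, spelled TTCNNNGAA, was found in 2 windows, those of Masp2 and C7, and in 7.11% of all windows. The kappa B motif, searched as GGGA, any 2 bases and TTCC, was found in 0 of the 25 windows and in 1.21% of all windows. Of the 8 called genes, C2 and Serping1 were not searched. The windows of the other 6 held no match, which says only that these letters are not in this stretch.

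C2, Cfb and C4b sit together on chromosome 17, in the class III region of the mouse major histocompatibility complex: Cfb at 34856374 to 34862518, C2 at 34862604 to 34898265 and C4b at 34728380 to 34743882, all on the minus strand (coordinates of the files, build GRCm38). In ADU-S100 tumors C2 and Cfb lay above every HBSS tumor, whereas C4b overlapped. C4b, whose product carries the classical convertase, had 54.4, 71.8 and 96.8 CPM in ADU-S100 tumors, against 114, 65.4 and 144 CPM in HBSS tumors (log2 fold change -0.52 ± 0.32 SE, edgeR adjusted p = 0.368). The annotation of the files places a readthrough gene, Gm20547, on the same strand over 79.5% of the exon length of Cfb and 42.8% of that of C2. Gm20547 had 0 counts in all 12 tumors, whereas Cfb and C2 had counts in each. That 0 sets no limit on the RNA of Gm20547, since reads in the shared exons may not have been counted for it. How reads in the shared exons were counted is not given in the sources used here, so the levels of Cfb and C2 are uncertain. C1ra, C1s1, C4b, Cd55 and Cd59a each have a related second gene (C1rb, C1s2, C4a, Cd55b and Cd59b), and how alike the pairs are was not measured. How reads that match both genes of a pair were counted is not given in the sources used here.

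In combination-treated tumors no member was called against HBSS, where 0% of 18565 genes were called at all. An unadjusted p under 0.05 was found for 10 of the 31 members, 7 higher and 3 lower, against 18.2% of all genes. DESeq2 called 7 members, against 5.43% of all genes, and limma voom with quality weights called 5, against 4.72%. For 5 members the lowest combination tumor exceeded the highest HBSS tumor (16.1%, against 13.9% of all genes), and for 4 all combination tumors were lower (12.9%, against 16.4%). The comparison shares its HBSS tumors with that of ADU-S100.

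The member with the smallest p was Vsig4, with the levels given above and a log2 fold change of -3.17 ± 0.46 (SE, edgeR adjusted p = 0.185). Fcna had 0.574, 0.481 and 1.01 CPM in combination tumors, against 3.11, 3.92 and 3.11 CPM in HBSS tumors (-2.26 ± 0.39, edgeR adjusted p = 0.185). Cfp had 78.8, 76.1 and 214 CPM in combination tumors, against 29.4, 29.9 and 34.0 CPM in HBSS tumors (2.02 ± 0.44, edgeR adjusted p = 0.185), and the log2 fold change was 1.34 without tumor 28LL. C5ar1 had 44.8, 41.0 and 75.7 CPM in combination tumors, against 24.5, 30.3 and 31.4 CPM in HBSS tumors (0.94 ± 0.27, edgeR adjusted p = 0.198), and 0.60 without 28LL. None of the 4 overlapped between the groups. C3 had 307, 525 and 566 CPM in combination tumors, against 283, 169 and 256 CPM in HBSS tumors, and did not overlap either (1.01 ± 0.30, edgeR adjusted p = 0.206).

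Cd55, Cfb and C2 also had smaller fold changes without tumor 28LL. Cd55 had 5.75, 17.7 and 212 CPM in combination tumors, against 2.31, 1.65 and 1.65 CPM in HBSS tumors (log2 fold change 5.43 ± 1.43 SE, edgeR adjusted p = 0.193). Without tumor 28LL it was 2.66. Cfb had 13.9, 30.98 and 88.6 CPM in combination tumors, against 11.2, 3.85 and 10.6 CPM in HBSS tumors (2.41 ± 0.76, edgeR adjusted p = 0.214), and 1.41 without 28LL. C2 had 3.66, 8.00 and 48.2 CPM in combination tumors, against 4.29, 1.56 and 2.58 CPM in HBSS tumors (2.86 ± 1.01, edgeR adjusted p = 0.235), and 1.07 without 28LL. Serping1 had 16.3 CPM in tumor 20L, inside the HBSS range of 11.6 to 27.8 CPM, 47.3 in tumor 22 and 322 in tumor 28LL. Clu, clusterin, an inhibitor of the pore in plasma, had 11.6, 28.1 and 165 CPM in combination tumors, against 24.3, 30.1 and 12.9 CPM in HBSS tumors. C4b had 25.3, 91.5 and 400 CPM in combination tumors, against 114, 65.4 and 144 CPM in HBSS tumors. Without tumor 28LL, 4 members were called against HBSS, where 1.3% of all genes were called: Cd55 (edgeR adjusted p = 0.0457) and Cfp (0.0087) higher, and Fcna (0.0157) and Vsig4 (0.0375) lower.

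**Figure D4:**
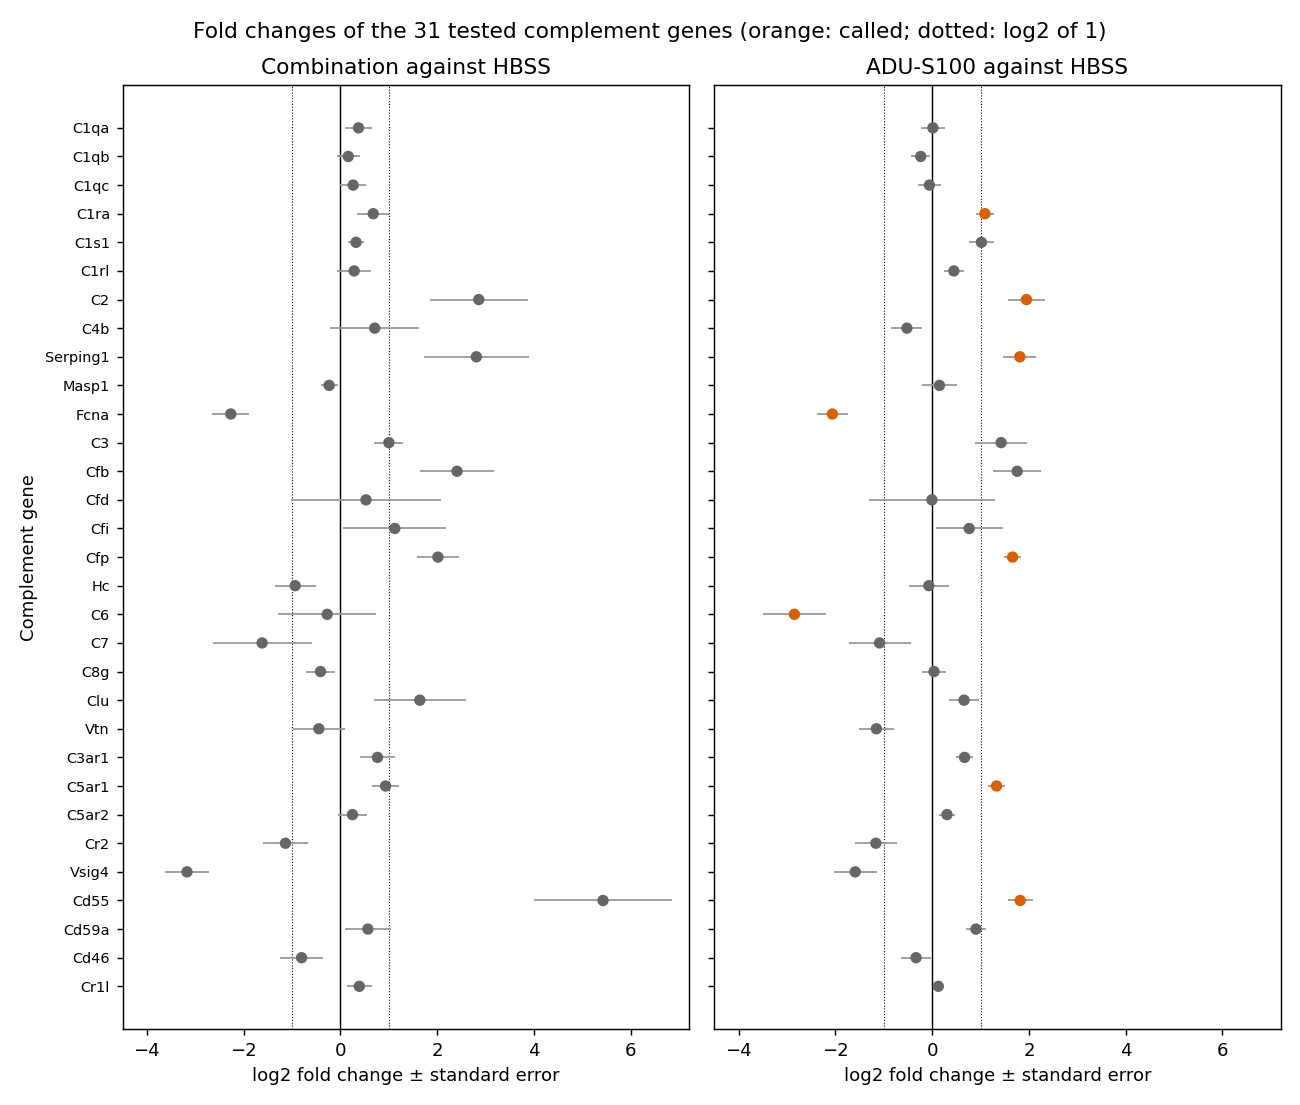
Log2 fold change ± standard error of the 31 tested complement genes in combination tumors (left) and ADU-S100 tumors (right) against the same 3 HBSS tumors; orange points were called and dotted lines mark a log2 fold change of 1 in either direction. The standard error of Cd55 is 1.43 in combination tumors and 0.26 in ADU-S100 tumors.

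Cyto-IL-15-treated tumors had no called member against HBSS, where 0% of 18594 genes were called, with 3 members at an unadjusted p under 0.05 (3.8% of all genes). DESeq2 called 1 member, Cd55, and 0.58% of all genes, and limma voom called 0 members and 0.0108% of all genes. Every cyto-IL-15 tumor lay above every HBSS tumor for 2 members (6.45%, against 4.38% of all genes) and below for 3 (9.68%, against 6.17%). Cd55 had 5.35, 30.9 and 5.97 CPM in cyto-IL-15 tumors 9R, 13 and 20LL, against 2.31, 1.65 and 1.65 CPM in HBSS tumors (log2 fold change 2.94 ± 0.77 SE, edgeR adjusted p = 0.898). All 3 lay above the controls, and without tumor 13 Cd55 was called with a log2 fold change of 1.61 and an edgeR adjusted p of 0.0369. Masp1, a lectin pathway protease, had 11.8, 3.29 and 8.79 CPM in cyto-IL-15 tumors, against 19.2, 22.7 and 17.1 CPM in HBSS tumors (-1.29 ± 0.45, edgeR adjusted p = 0.898). Serping1 had 45.4, 24.4 and 39.0 CPM in cyto-IL-15 tumors, against 27.8, 11.6 and 16.8 CPM in HBSS tumors (0.97 ± 0.38, edgeR adjusted p = 0.898). Fcna split the group, with 6.45 CPM in tumor 13 and 0.808 and 0.949 CPM in tumors 9R and 20LL, against 3.11 to 3.92 CPM in HBSS tumors. Without tumor 13 Fcna was the other member called, where 0.917% of all genes were called.

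Cd55 was thus the only member above every HBSS tumor in all 9 treated tumors, and Vsig4 the only one below in all 9, where 1.3% and 1.64% of 20132 genes did so. The treated groups share the same 3 HBSS tumors in both counts.

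Between combination and ADU-S100 tumors no member was called by edgeR, DESeq2 or limma voom, where edgeR called 0% of 18689 genes, DESeq2 0.0108% and limma voom 0%, and 2 members had an unadjusted p under 0.05 (4.29% of all genes). No member was free of overlap between these groups, against 4.51% of all genes above and 6.27% below. Cd55 had a log2 fold change of 3.60 ± 1.29 (SE, edgeR adjusted p = 0.884), which was 0.85 without tumor 28LL. Vsig4 had one of -1.59 ± 0.62 (edgeR adjusted p = 0.884).

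Combination against cyto-IL-15 tumors likewise gave no call, where 0% of 18619 genes were called, with 5 members at an unadjusted p under 0.05 (4.97% of all genes). DESeq2 called 2 members, Cfb and Vsig4, and 0.578% of all genes, and limma voom called 0 members and 0% of all genes. The 5 members were Vsig4 (log2 fold change -2.45 ± 0.52 SE), Cfb (2.60 ± 0.74), C3 (1.33 ± 0.45), C5ar1 (0.99 ± 0.35) and C1s1 (0.80 ± 0.33), each with an edgeR adjusted p of 0.785. Without tumor 28LL, Cfb had 1.59 and C5ar1 0.65, and without tumor 13, C1s1 had 0.53. Every combination tumor lay above every cyto-IL-15 tumor for 4 members (12.9%, against 5.89% of all genes) and below for 1 (3.23%, against 6.87%). C1s1 had 99.1, 112 and 139 CPM in combination tumors, against 67.2, 40.9 and 94.99 CPM in cyto-IL-15 tumors, so that the groups came close without overlap.

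ADU-S100 against cyto-IL-15 tumors gave no called member among 0.0855% of 18708 genes called, with 10 members at an unadjusted p under 0.05 (7.85% of all genes). DESeq2 called 5 members and 1.35% of all genes, and limma voom 4 members and 1.02% of all genes. Of the 10 members 9 had higher levels in ADU-S100 tumors. The log2 fold changes were 1.35 ± 0.29 (SE, edgeR adjusted p = 0.345) for C5ar1, 1.06 ± 0.23 (0.356) for C1ra, 1.92 ± 0.45 (0.425) for Cfb, 1.46 ± 0.38 (0.476) for C1s1, 0.95 ± 0.30 (0.604) for C2, 1.72 ± 0.59 (0.615) for C3 and 0.81 ± 0.28 (0.615) for Serping1. C3ar1 and Masp1 were the remaining higher members. Without tumor 13, C5ar1 was called at 1.69 (edgeR adjusted p = 0.0124), as were Cfp on the higher and C7 on the lower side, where 1.05% of all genes were called. C6 was the lower one, at -2.64 ± 0.73 (edgeR adjusted p = 0.518). Every ADU-S100 tumor lay above every cyto-IL-15 tumor for 8 members (25.8%, against 9.3% of all genes) and below for 1 (3.23%, against 7.42%).

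The interaction asks whether the effect of adding cyto-IL-15 differs with ADU-S100 present. No member was called by edgeR, DESeq2 or limma voom, each of the 3 tools called 0% of all genes (20132 in edgeR), and Vtn alone had an unadjusted p under 0.05, against 2.29% of all genes (log2 difference 2.38 ± 0.95 SE, edgeR adjusted p = 1.00). Vtn had 1.43, 2.67 and 4.75 CPM in combination tumors, 2.37, 1.67 and 1.39 CPM in ADU-S100 tumors, 1.87, 0.242 and 1.69 CPM in cyto-IL-15 tumors and 3.70, 6.10 and 2.498 CPM in HBSS tumors.

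The remaining members can be given by their ranges. Factor D (Cfd), the protease that cleaves factor B and a product of fat cells, varied more within groups than between them, from 0.574 to 42.5 CPM in the combination group, 1.72 to 20.7 in the ADU-S100 group, 0.21 to 15.3 in the cyto-IL-15 group and 0.979 to 21.0 in the HBSS group. The summed level of 5 adipocyte genes was 26.9 to 112 CPM in the combination group, 50.7 to 84.5 with ADU-S100, 5.08 to 33.4 with cyto-IL-15 and 18.7 to 108 in the HBSS group. Cfd and that sum were both highest in tumor 28LL and lowest in tumor 13, whereas ADU-S100 tumor 18R had 50.7 CPM of adipocyte genes with 1.72 CPM of Cfd and HBSS tumor 19 had 29.3 CPM with 11.4 CPM of Cfd. The part of fat cells in its level was not tested. C5 (Hc) ranged over 2.6 to 6.15 CPM in combination tumors, 4.02 to 12.04 in ADU-S100 tumors, 3.05 to 6.999 in cyto-IL-15 tumors and 5.39 to 11.9 in HBSS tumors. C7 and the C8 gamma chain C8g reached at most 4.01 and 2.21 CPM in any tumor, and factor I (Cfi), which inactivates C3b and C4b, at most 0.716 CPM. C9, the pore-forming unit, had 1 to 11 counts in 11 tumors and 0 in tumor 22, which allows up to 0.0437 CPM there, and Masp2 had 1 to 15 counts. Among the regulators, Cr1l (mouse Crry, which acts on C3 convertases) had 38.0 to 76.3 CPM in combination tumors, with the highest level in 28LL, 45.6 to 49.1 in ADU-S100 tumors, 40.9 to 50.4 in cyto-IL-15 tumors and 41.0 to 46.2 in HBSS tumors. Cd46, a cofactor for factor I, had 0.826 to 2.2 CPM in combination tumors, 1.61 to 2.58 in ADU-S100 tumors, 0.984 to 2.17 in cyto-IL-15 tumors and 1.85 to 3.37 in HBSS tumors. The second C5a receptor C5ar2 had 5.73 to 10.4 CPM in combination tumors, 6.95 to 9.14 in ADU-S100 tumors, 3.98 to 7.02 in cyto-IL-15 tumors and 6.11 to 6.49 in HBSS tumors. The C1r-like protease C1rl had 5.09 to 11.69 CPM in combination tumors, 6.07 to 10.8 in ADU-S100 tumors, 5.76 to 6.92 in cyto-IL-15 tumors and 6.16 to 6.66 in HBSS tumors. Cr2 ranged from 0.205 to 0.436 CPM in ADU-S100 tumors, against 0.484 to 1.21 CPM in HBSS tumors, beside a summed level of 5 B cell genes of 4.37 to 7.69 CPM in ADU-S100 tumors and 11.1 to 12.8 CPM in HBSS tumors. The part of B cells in its level was not tested.

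Of 24 other genes of the pathway, 13 were tested between ADU-S100 and HBSS tumors and 1 was called higher, against 2.75% of all genes. Ptx3, a pentraxin that binds C1q, had 34.1, 30.6 and 47.2 CPM in ADU-S100 tumors, against 16.3, 8.16 and 12.9 CPM in HBSS tumors (log2 fold change 1.60 ± 0.27 SE, edgeR adjusted p = 0.0176). Of 14 tested between combination and HBSS tumors none was called by edgeR and 7 had an unadjusted p under 0.05, against 18.2% of all genes. Of 12 tested between cyto-IL-15 and HBSS tumors none was called and 1 had an unadjusted p under 0.05, against 3.8% of all genes.

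**Figure D5:**
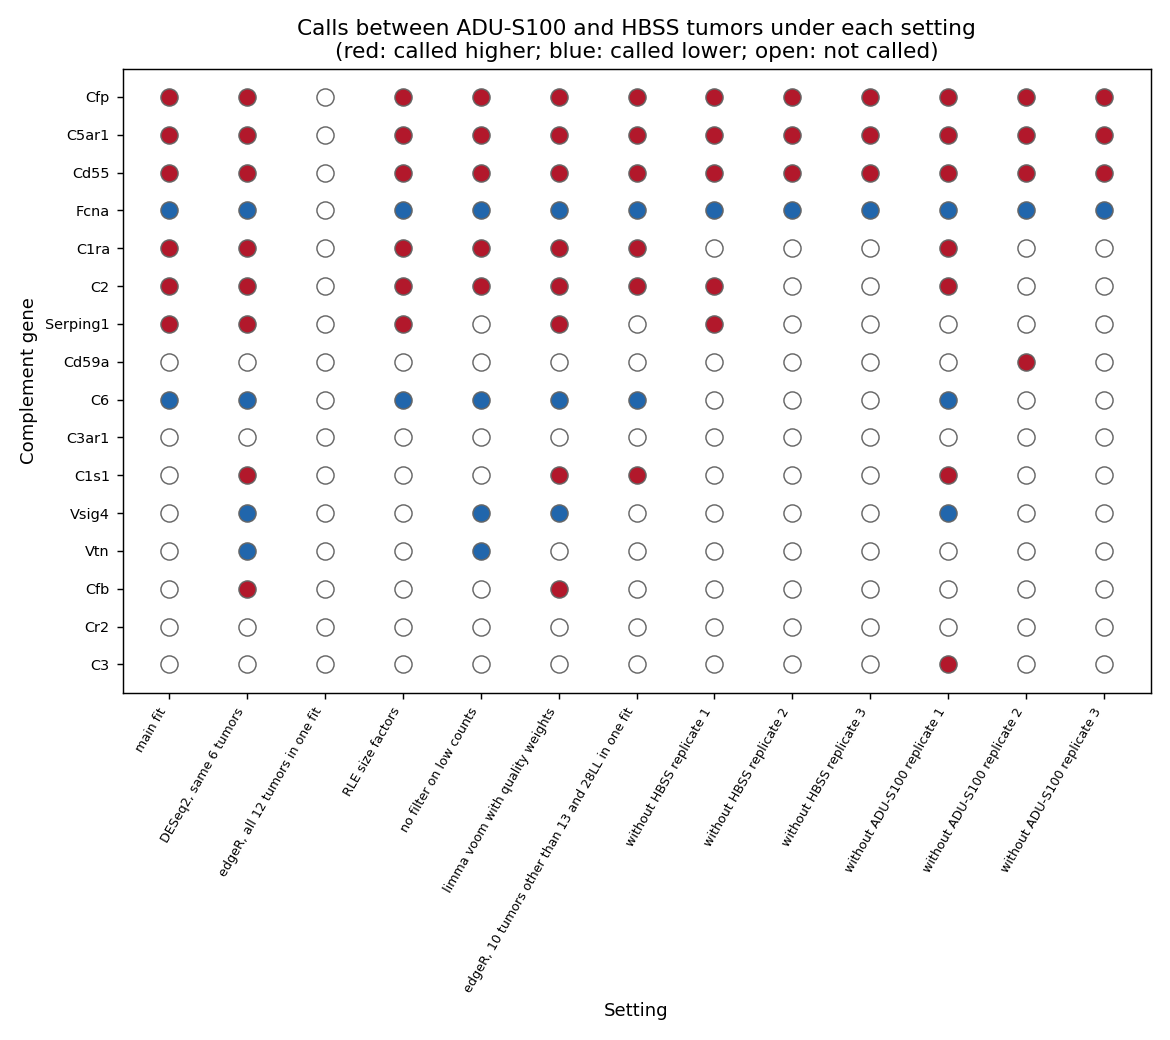
Calls of 16 complement genes (rows, by p) between ADU-S100 and HBSS tumors under the fit reported here and 12 alternatives (columns); red was called higher, blue called lower, open not called. Cfp, C5ar1, Cd55 and Fcna were called in 11 of the 12 alternatives, the exception being the fit of all 12 tumors together, which called 0 members.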

How the data were processed

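RNA of 12 TRAMP-C2 tumors, 3 per group, was prepared with an RNeasy kit and NEBNext Ultra II libraries. The authors deposited raw counts per gene, 1 table per tumor. The submitters' processing notes name the aligner STAR 2.5.2b, the trimmer Trimmomatic 0.36, featureCounts from Subread 1.5.2, bcl2fastq 2.20 and DESeq2, with builds GRCm38 and mm10; strand setting, treatment of multimapping reads and annotation release are not given in the sources used here. Groups came from the treatment labels. Labels name tumors and not mice, so p-values measure the spread between these tumors.

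Counts were scaled by TMM, filtered with filterByExpr (minimum count 10, minimum total 15) and tested with edgeR 4.0.16 in R 4.3.3, by the quasi-likelihood F test with robust dispersion. Each pairwise fit used its own 6 tumors and the interaction all 12. Benjamini-Hochberg adjustment ran over all genes tested, and genes were called where the adjusted p was below 0.05 and the log2 fold change beyond 1 in size. DESeq2 1.42.0, limma 3.58.1 voom with quality weights, other scaling, no filter, a joint fit and leaving out each tumor were alternatives. Intervals for counts of 0 cover counting error only. The members and lists were chosen with earlier results of these data known. Fold changes are given for called members and for at most 8 further members per comparison with the smallest unadjusted p under 0.05, and for C1q and C4b, which were added after their values were seen. The fits were tested on simulated data. A result for 1 of the other pathway genes is not reported here.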

Additional observations from a re-analysis of the deposited data

How the results depend on the processing

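Alternatives were tried for 43 fold changes of members, all called or with an unadjusted p under 0.05 in the fit reported here. Picked that way, they were unlikely to reverse, and none of the 520 alternative values did. Of these values, 445 kept their side of the thresholds, 46 passed them only in the alternative and 29 lost the call. Levels of all members moved by less than 1 SD under CPM of the library total. Between ADU-S100 and HBSS tumors, DESeq2 called 12 members (5.51% of all genes) and limma voom 11 (4.12%), against 8 in the fit reported here. The joint edgeR fit of all 12 tumors called 0 members and 0% of all genes. A fit without tumors 13 and 28LL, chosen after seeing the data, called 8 (2.69%), and leaving out 1 tumor gave 4 to 10. Between combination and HBSS tumors, DESeq2 called 7 members and limma voom 5. The fit without tumors 13 and 28LL called 4 members and 1.53% of all genes, and leaving out 1 tumor gave 0 to 4. Between cyto-IL-15 and HBSS tumors DESeq2 called 1, and leaving out 1 tumor gave 0 to 2. Between combination and cyto-IL-15 tumors DESeq2 called 2 and the fit without both tumors 1 (0.252% of all genes). Between ADU-S100 and cyto-IL-15 tumors DESeq2 called 5, limma voom 4 and the fit without both tumors 2 (1.13% of all genes). Leaving out 1 tumor gave 0 to 3 there. The cause of these shifts was not tested. No paired analysis was possible because the labels name tumors without a replicate number, so that numbers given in accession order pair nothing, and no label says what a numeral shared by tumors of several groups (22, 20) marks. With 3 tumors per group and genes such as Vsig4, C6, C9 and Masp2 at few counts, depth limits what can be told of the rarest members.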
